A study of Mus musculus with 6 samples.

Results

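The 10 mRNAs described here encode LARP1 itself and the kinase and cap-binding machinery that LARP1 works beside: Larp1, Mtor, Rheb, Ddit4, Rps6kb1, Eif4ebp1, Eif4ebp2, Eif4e, Eif4g1 and Eif4g2. They were chosen by Ensembl gene identifier for the roles of their proteins, and all 10 were found among the 16976 identifiers of the deposited count table. The identifiers and symbols were paired in that choice, and the gene table used here, which lists no Ensembl identifiers, could not check the pairing.

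The samples were LARP1 immunoprecipitates from the dorsal root ganglia of wild-type mice, which hold the cell bodies of sensory neurons next to the spinal cord. In the injured group the sciatic nerve, which carries axons of these neurons, had been injured, and in the uninjured group it had not; the labels used here name no age, time after injury or number of animals. Each group has 3 libraries of nanopore-sequenced, amplified cDNA. Total RNA, a control precipitate and markers of cell types were not analysed here, so a value is the level of an mRNA in the precipitate and not its enrichment by LARP1, and more mRNA in the tissue cannot be told apart from more of it bound by LARP1. In such bulk samples, fewer cells of a type and less RNA per cell cannot be told apart either.

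LARP1 binds the cap and the first bases of mRNAs with a 5′ terminal oligopyrimidine (TOP) motif, a C at the cap followed by a run of pyrimidines (C or T), and holds them untranslated when the kinase mTOR is inactive. mTOR, within its complex 1, is switched on by the small GTPase RHEB and restrained by DDIT4 (also called REDD1), which is induced by stress. Active mTOR phosphorylates LARP1, S6 kinase and the eIF4E-binding proteins. The last of these then release the cap-binding protein eIF4E, which joins the scaffold eIF4G1 to start translation. Local mTOR activity in injured sensory axons is known to contribute to the injury response of the neuron.

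The start-site sequences are shown because the TOP motif is the feature by which LARP1 is known to select mRNAs. RefSeq promoter entries (build GRCm38.p6) were matched by symbol for 8 of the 10 genes, with 9 annotated starts; Eif4ebp1 and Eif4g2 were not matched. Each window below runs from 10 bases before the annotated start to 20 bases from it onward, on the strand of the gene. Capitals mark every C followed by at least 4 further pyrimidines.
Larp1, chr11:58009054-58009083, plus strand: aggcgcgccggagCCTTCTgcccggcgcgc
Mtor, chr4:148448572-148448601, plus strand: CCTCCCCaCCTCCCTggcctagaagacagc
Ddit4, chr10:59951751-59951780, minus strand: agcgatcgggggttggcaccagttcgctca
Eif4e, first start, chr3:138526181-138526210, plus strand: aaacagcagcggaggcggagggagctggtc
Eif4e, the second start, chr3:138527258-138527287, plus strand: CCCCCTTCaggagcggttgtgcgatcagat
Eif4g1, chr16:20672717-20672746, plus strand: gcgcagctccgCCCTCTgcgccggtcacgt

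Of the 9 member windows, 4 held such a run, those of Larp1, Mtor, Eif4g1 and the second start of Eif4e. The runs had 6 bases in Larp1, beginning at base 4 of the annotated transcript, and 6 in Eif4g1, beginning at base 2. The run of 8 bases at the second start of Eif4e lay wholly before the annotated start, and Mtor had a run before its start and another across it. Over all 32851 windows of the same length in the table, 35.8% held one. At the annotated first base itself, 0 of the 9 member starts and 2.51% of all starts began such a run. The windows of Rheb, Rps6kb1 and Eif4ebp2, which are not printed, held none. These are matches to annotated starts, not measured cap sites, and nothing about LARP1 binding was read from them.

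Counts were low, and this sets how much can be said of most of these genes. The uninjured libraries held 116186 to 116608 counts and the injured libraries 211337 to 211879, so after summing, 1 count is worth 2.87 CPM (counts scaled to 1e+06 in all) without injury and 1.58 CPM with it. Summed over the 6 libraries, the genes had 8 to 841 counts with a median of 36.5, and 8 of the 10 had under 100. A count was present in all 6 libraries for 8 of them. Libraries of the same group hardly differed beyond counting: their variance was 1.16 times counting noise over 3827 uninjured genes and 1.12 times over 6152 injured genes, each with at least 15 counts. Among the 10 genes, 12 combinations of gene and group had at least 15 counts, and exact multinomial tests of their counts against library totals gave a lowest p of 0.172 (Benjamini-Hochberg adjusted 0.797). The libraries are labelled as replicates, and the labels do not say whether they came from separate animals. Because of the small variance over all genes, each group was taken as 1 sample, with its counts added up. Differences between the groups thus have no replicate check, and group and batch of preparation cannot be told apart. The intervals that follow reflect the counting error of reads alone. Amplified reads without molecular identifiers are not independent molecules, so the intervals may be too narrow even for counting error.

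Of the 10 mRNAs, Ddit4 and Eif4g1 were called higher in the injured precipitate by the rule given below and none was called lower. Larp1 was the best-counted gene with a ratio below 1. Together the 10 held 1281 CPM without and 1585 CPM with injury, a ratio of 1.24 (95% exact Clopper-Pearson interval 1.11 to 1.39), and the library values of 1247 to 1308 CPM and 1477 to 1646 CPM did not overlap. Without Eif4g2 the other 9 genes had 596 CPM without and 637 CPM with injury, a ratio of 1.07 (0.901 to 1.27). Their library values, 568 to 628 CPM without and 604 to 696 CPM with injury, overlapped. Larp1, with its ratio below 1, supplied most of the counts of these 9. Larp1 and Eif4g2 supplied 85.5% of the set's counts without and 81.1% with injury. The 8 genes besides these had 186 CPM without and 299 CPM with injury, a ratio of 1.61 (1.21 to 2.16). Most of that difference lay in Ddit4, Eif4e and Eif4g1, so the summed ratio does not describe the 8 genes alike. The median ratio was 1.28 over the 10 genes and 1.14 over the 9467 genes with at least 8 counts, the lowest total among the 10, a value inside the interval of the set's summed ratio. Of the 10, 8 had a ratio above 1, against 56.7% of those genes. Among these 8, the intervals of Mtor, Rheb, Rps6kb1, Eif4ebp1 and Eif4e included 1. Mtor, at 1.01, fell to 0.958 with TMM factors. A gene with no count in one group was set to 3 counts there for the median.

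A gene was called where its ratio of CPM passed 1.5 in either direction and the 95% exact interval left out 1. This held for 2 of the 10 genes, Ddit4 and Eif4g1, both higher after injury, and for 0 in the lower direction. Both lie among the 8 with under 100 counts. Of all 7620 genes with 8 to 99 counts, 21.0% were called higher and 12.8% lower by the same rule, so 2 of 8 is near the background. Of the 1847 genes with 100 or more counts, 28.7% were called higher and 18.3% lower; Larp1 and Eif4g2, which belong to that class, were not called. Without the fold threshold, the interval left out 1 for 3 of the 10 genes, the third being Eif4g2, and included 1 for the other 7. It lay above 1 for 23.6% and below 1 for 15.1% of the genes with at least 8 counts. Most of those genes had under 100 counts, unlike Eif4g2. Among genes with 100 or more counts, 28.7% were called higher even with the fold threshold. In 4 genes, Ddit4, Eif4e, Eif4g1 and Eif4g2, all injured libraries lay above all uninjured ones, a pattern that 28.4% of the genes with at least 8 counts shared. The opposite pattern was seen in 0 of the 10 and in 16.1% of those genes.

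**Figure D1:**
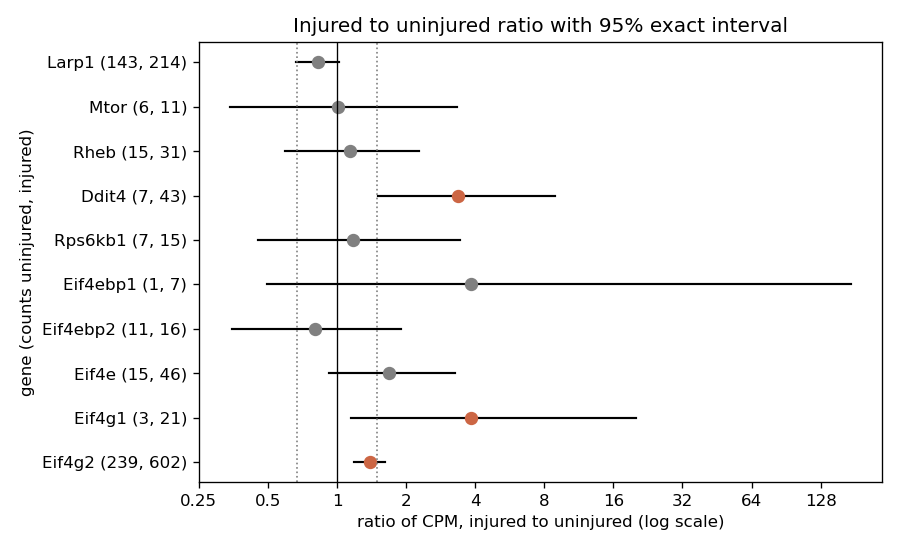
Ratio of CPM, injured to uninjured, on a log axis for the 10 genes, with 95% exact intervals as bars and the summed uninjured and injured counts beside each name; dotted lines mark a ratio of 1.5 in either direction. Coloured points, Ddit4, Eif4g1 and Eif4g2, have intervals above 1, and the widest interval, from 0.495 to 174, is that of Eif4ebp1 with 1 uninjured count.

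The test across all genes was edgeR's quasi-likelihood test of the 6 libraries, with TMM scaling and a Benjamini-Hochberg threshold of 0.05. With each group taken as 1 sample, it is read as a comparison of the reads and not of the conditions, and calls are given without p-values for single genes. Of 3158 genes that passed its filter on low counts, 24.9% were called higher and 22.1% lower in the injured reads. Only 4 of the 10 genes passed the filter: Larp1, Ddit4, Eif4e and Eif4g2. Ddit4 and Eif4e reached it through their injured counts alone, so a high injured level favoured their passing. Of the 4, Ddit4 and Eif4g2 were called higher, and Larp1 and Eif4e were not called. Eif4g1, called by its ratio above, was not tested here for lack of counts, and without any filter, or with DESeq2, it was tested and not called. On summed counts, if animals are assumed to vary by a coefficient of variation of 0.2, 0 of the 4 were called.

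Larp1 (ENSMUSG00000037331), the mRNA of the precipitated protein, had a ratio below 1, but its interval included 1 and it was not called. Its level was 456, 377 and 396 CPM in the uninjured libraries (53, 44 and 46 counts) and 283, 388 and 341 CPM in the injured libraries (60, 82 and 72 counts). The groups overlapped through the second library of each, the lowest uninjured and the highest injured one. Summed by group, Larp1 stood at 410 CPM (95% exact Poisson interval 345 to 483) without and 337 CPM (294 to 386) with injury, a ratio of 0.823 (0.663 to 1.02). The ratio was below 1 under each of 5 scalings, and its interval left out 1 under 3 of them: it was 0.782 (0.630 to 0.973) with TMM factors, 0.771 (0.621 to 0.959) with totals that leave out the 10 most abundant genes and 0.758 (0.611 to 0.944) with upper quartile factors. The last lower every ratio by 0.12 on the log2 scale against library totals, and with them edgeR's test called Larp1 lower. The main fit and 17 of the 18 alternative fits did not call Larp1. With 1 library left out, the ratio ran from 0.761 to 0.889. The interval left out 1 in only 1 of these 6 cases, without the second injured library, at 0.761 (0.596 to 0.971). Ranked by counts, which are not corrected for length, Larp1 went from place 376 to place 514.

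Larp1 made up a smaller part of the 10 genes' counts after injury, a measure that does not depend on library scaling. Its share was 32.0% (143 of 447 counts, 95% Wilson interval 27.8% to 36.5%) without and 21.3% (214 of 1006, 18.9% to 23.9%) with injury. By library it was 36.6%, 29.3% and 30.3% without and 19.2%, 23.8% and 20.7% with injury, and the groups did not overlap. Because Eif4g2 holds most of the remaining counts, this share mainly sets Larp1 against Eif4g2.

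**Figure D2:**
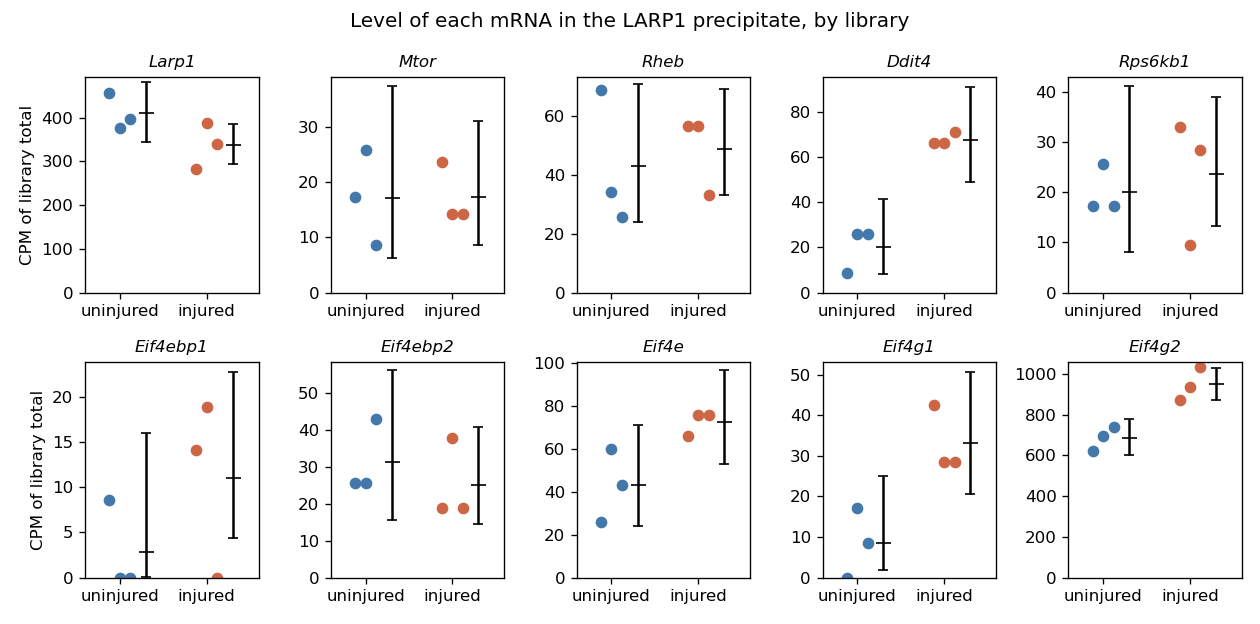
CPM of the library total for each of the 10 genes in the 3 uninjured (blue) and 3 injured (orange) libraries; the black bar beside each group is the summed level with its 95% exact Poisson interval. The injured points lie above the uninjured ones in Ddit4, Eif4e, Eif4g1 and Eif4g2 and overlap them in the other 6 genes.

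Among mTOR and its regulators, the inhibitor's mRNA had the largest ratio, with an interval that overlapped those of Mtor and Rheb. Ddit4 (ENSMUSG00000020108), which encodes the stress-induced mTOR inhibitor, had 8.60, 25.7 and 25.8 CPM in the uninjured libraries (1, 3 and 3 counts) and 66.1, 66.2 and 71.0 CPM in the injured libraries (14, 14 and 15 counts). The injured libraries lay close together, and even the lowest was well above the highest uninjured one. Summing gave 20.1 CPM (8.06 to 41.3) in uninjured and 67.8 CPM (49.0 to 91.3) in injured ganglia, a ratio of 3.38 (1.51 to 8.90). The ratio stayed between 2.63 and 3.94 when any 1 library was left out, and the interval left out 1 each time. Its call in edgeR's test was lost with DESeq2, with limma-voom and without the first uninjured library.

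Mtor (ENSMUSG00000028991), the kinase, could not be resolved at this depth. It had 17.2, 25.7 and 8.61 CPM without (2, 3 and 1 counts) and 23.6, 14.2 and 14.2 CPM with injury (5, 3 and 3 counts). The summed levels were 17.2 and 17.3 CPM, a ratio of 1.01 (0.342 to 3.32). With 6 uninjured counts, a ratio of at least 2.47 would have been needed for the interval to lie above 1.

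Rheb (ENSMUSG00000028945), the activating GTPase, had 68.8, 34.3 and 25.8 CPM without and 56.6, 56.8 and 33.1 CPM with injury, from 15 and 31 counts. The highest value was the first uninjured library, and the groups overlapped over most of their range. Its ratio was 1.14 (0.595 to 2.27).

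Rps6kb1 (ENSMUSG00000020516), which encodes S6 kinase 1, had 17.2, 25.7 and 17.2 CPM without and 33.0, 9.46 and 28.4 CPM with injury, from 7 and 15 counts. The second injured library was the lowest of all 6. The ratio was 1.18 (0.452 to 3.42), and a ratio under 2.36 could not have been resolved above 1 at this depth.

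The eIF4E-binding proteins, the repressors that mTOR inactivates, had few counts in either group. Eif4ebp1 (ENSMUSG00000031490) was represented by 1, 0 and 0 counts in the uninjured libraries and by 3, 4 and 0 after injury. Its level was 2.87 CPM (0.0725 to 16.0) over the uninjured group and 11.0 CPM (4.43 to 22.7) over the injured group, and the ratio of 3.85 has an interval of 0.495 to 174. With any 1 library other than the first uninjured one left out, it ran from 2.47, without the second injured library, to 5.77, without the third. Eif4ebp2 (ENSMUSG00000020091) had 25.8, 25.7 and 43.0 CPM without and 18.9, 37.9 and 18.9 CPM with injury, from 11 and 16 counts. Its ratio was 0.800 (0.349 to 1.91), and the groups overlapped. The share of Eif4ebp1 in the counts of both was 8.33% without (1 of 12 counts, 1.49% to 35.4%) and 30.4% with injury (7 of 23, 15.6% to 50.9%), with overlapping Wilson intervals. The lone uninjured count of Eif4ebp1 came from the first library, without which this share is 0% and no ratio can be given.

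Eif4e (ENSMUSG00000028156), the cap-binding protein's mRNA, was higher in all injured libraries, but its interval included 1. It had 25.8, 60.0 and 43.0 CPM without (3, 7 and 5 counts) and 66.1, 75.7 and 75.7 CPM with injury (14, 16 and 16 counts). The lowest injured library lay close above the highest uninjured one. Over each group it stood at 43.0 CPM (24.1 to 70.9) in uninjured and 72.5 CPM (53.1 to 96.7) in injured ganglia, a ratio of 1.69 (0.925 to 3.25). The share of Eif4e in the counts of Eif4e and both binding proteins was 55.6% without (15 of 27 counts, 37.3% to 72.4%) and 66.7% with injury (46 of 69, 54.9% to 76.6%). The balance between these mRNAs in the precipitate was thus not resolved, and the levels of their proteins were not measured.

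Of the eIF4G scaffolds, Eif4g1 was called higher by its ratio, from few counts, and Eif4g2 had a smaller ratio, under the fold threshold, with an interval above 1. Eif4g1 (ENSMUSG00000045983), which bridges eIF4E to the ribosome, had 0, 17.2 and 8.61 CPM without (0, 2 and 1 counts) and 42.5, 28.4 and 28.4 CPM with injury (9, 6 and 6 counts). All 3 injured libraries lay above the uninjured ones. Over each group this came to 8.60 CPM (1.77 to 25.1) in uninjured and 33.1 CPM (20.5 to 50.6) in injured ganglia, a ratio of 3.85 (1.15 to 20.2). The interval rests on 3 uninjured counts. It reached below 1 without the first or the third uninjured library or the first injured library, with ratios of 2.57 (0.767 to 13.4), 3.85 (0.942 to 33.9) and 3.30 (0.891 to 18.2). Without the second uninjured library the ratio was 7.69 (1.24 to 318).

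Eif4g2 (ENSMUSG00000005610), also called DAP5, encodes a relative of eIF4G1 that lacks the eIF4E-binding part and serves cap-independent and other eIF4E-free initiation. It had the most counts of the 10 genes, and its difference was the most precisely measured. Its level was 619, 695 and 740 CPM in the uninjured libraries (72, 81 and 86 counts) and 873, 937 and 1036 CPM in the injured libraries (185, 198 and 219 counts). The groups did not overlap. Summed, it stood at 685 CPM (601 to 777) in uninjured and 949 CPM (874 to 1028) in injured ganglia, a ratio of 1.39 (1.19 to 1.62). The ratio was 1.28 to 1.38 under the 4 other scalings and 1.32 to 1.44 with any 1 library left out, and the interval lay above 1 in all of these. Ranked by counts, not corrected for length, it went from place 197 to place 137.

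Whether the ratios of the scaffolds differed from each other was not resolved. Eif4g1 made up 1.24% of the counts of both scaffolds without (3 of 242, 0.422% to 3.58%) and 3.37% with injury (21 of 623, 2.22% to 5.10%). The Wilson intervals overlapped. By library the share was 0%, 2.41% and 1.15% without and 4.64%, 2.94% and 2.67% with injury.

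**Figure D3:**
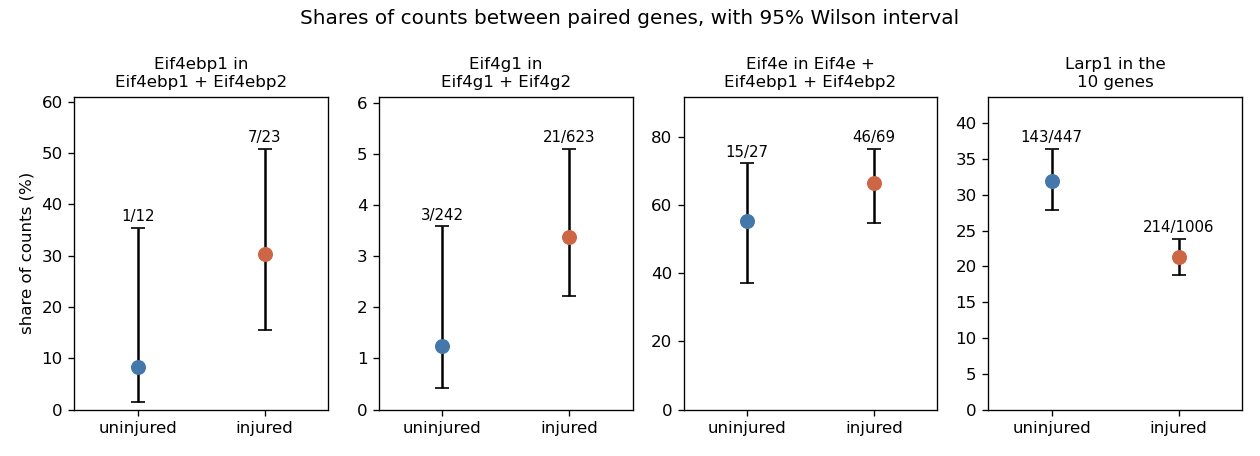
Share of counts in percent, from left to right, of Eif4ebp1 in both binding-protein genes, of Eif4g1 in both scaffold genes, of Eif4e in Eif4e and both binding-protein genes, and of Larp1 in all 10 genes, with 95% Wilson intervals and the counts above each bar. The intervals of the groups overlap in the first 3 panels and do not overlap for Larp1, at 32.0% without and 21.3% with injury.

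The ratios of the 10 genes lay within the range of other genes with as many counts. Genes with few counts, such as Eif4ebp1 with 8 and Eif4g1 with 24, share their part of the range with many genes of equally wide ratios. Larp1 and Eif4g2 were the only ones of the 10 whose depth would have shown a ratio as small as 1.22 and 1.17 above 1. For the other 8, the smallest ratio that would have been resolved above 1 was between 1.83, for Rheb and Eif4e, and 7.15, for Eif4ebp1. The limit for ratios below 1 was not worked out. The absence of genes called lower thus says little for those with few uninjured counts.

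**Figure D4:**
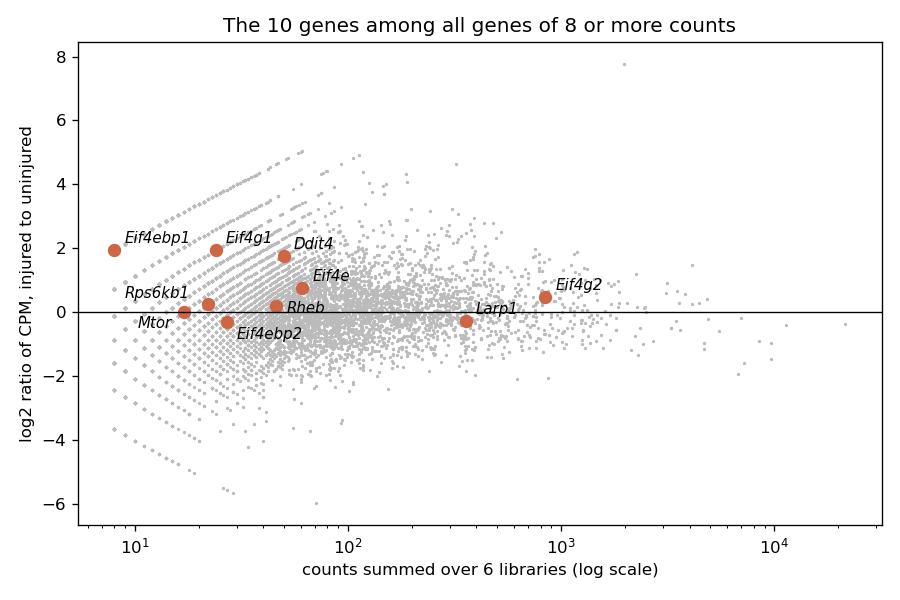
Log2 ratio of CPM, injured to uninjured, against counts summed over the 6 libraries (log axis) for 8764 genes with at least 8 counts and a count in both groups (grey), with the 10 genes in orange; 703 genes with no count in one group are left out. The grey cloud widens toward low counts, and the 10 genes lie inside it, from Eif4ebp1 at 8 counts to Eif4g2 at 841.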

How the data were processed

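RNA from LARP1 precipitates was measured in 6 nanopore cDNA libraries, 3 per group. The authors deposited estimated counts, one value per Ensembl gene and library, without normalization; minimap2, Salmon and the build GRCm39 (mm39) are named per the submitters' processing notes, with no version, annotation release or filter given in the sources used here. Salmon divides reads among similar transcripts by estimation, which can move counts between a gene and its near-identical copies. All values were whole numbers, rounded without effect.

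The counts of each group were summed; CPM use column totals, with 95% exact Poisson intervals, exact Clopper-Pearson intervals for ratios and Wilson intervals for shares. Across all genes, the quasi-likelihood test of edgeR 4.0.16 under R 4.3.3 (TMM, filterByExpr, Benjamini-Hochberg 0.05) was fitted to the 6 libraries; DESeq2 1.42.0 and limma-voom (limma 3.58.1), other scalings and filters, a replicate term, assumed spreads and leaving out each library were alternatives. Tests and intervals were tested on simulated data with little or no spread beyond counting. Duplicated reads and differences between animals were not simulated. All 10 genes are named. The genes, lists and tests were chosen with earlier results of these data known. Lists of further pathway genes and of cell type markers were not analysed here: 0 of 16976 identifiers matched the gene table.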

Additional observations from a re-analysis of the deposited data

How the results depend on the processing

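All 99 ratios of the 10 genes under other scalings or with 1 library left out lay within the interval of the ratio reported. This says little, because these settings reuse the same counts and most of the intervals are wide. Eif4ebp1 without uninjured library 1, where no ratio can be given, is not among the 99. The number of genes called higher by ratio, 2, was 1 to 2 with 1 library left out, since Eif4g1 was lost without uninjured library 1 or 3 or injured library 1. In edgeR's test, 786 genes were higher and 699 lower; leaving out 1 library gave 638 to 836 and 582 to 756. An assumed coefficient of variation of 0.2, wider than the spread between libraries by construction, left 305 higher and 176 lower, and one of 0.4 left 42 and 5; 0 of the 10 genes were then called. Of the 10, 2 were called higher; it was 1 with a mean of at least 10 counts, with DESeq2 and with limma-voom, and 1 to 2 with 1 library left out. With any 1 injured library left out, Ddit4 did not pass the filter on low counts, and without uninjured library 1 it was tested and not called. The count of 0 called lower became 1, Larp1, with upper quartile factors. Eif4ebp1's uninjured share of 8.33% ran from 0% to 14.3% with 1 library left out. With the replicate block, 750 genes were higher and 677 lower, and Ddit4 and Eif4g2 were again the 2 called; libraries with the same number deviated from their group means with correlations of 0.03, 0.01 and -0.04, so the numbers were not taken to pair the libraries. For ratios above 1, depth limits all genes but Larp1 and Eif4g2 to 1.83 or more, and the limit below 1 was not worked out.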
